A study of Homo sapiens with 4 samples.

Results

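Androgen-repressed genes are those whose transcripts fall when androgen is given to LNCaP, a human prostate cancer cell line that depends on the androgen receptor. The members were 10 genes named for that property, and a probe set counted for a gene only where the array's annotation named that gene alone. This rule found 11 probe sets of 9 genes, of 22215 non-control probe sets and 11963 such genes on the array. ST7 had no probe set of its own. The androgen regulation is background knowledge, because no array here compared androgen with its absence, and TIPARP has also been described as an androgen-induced gene in prostate cancer cells.

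The MED1 group was LNCaP transfected with a vector for MED1 (2 samples). The other group was LNCaP transfected with the empty vector (2 samples). These groups follow the title and transfection label, whereas the description field says MED1 vector for all 4 samples. Both groups grew in medium with 10% serum, were transfected transiently with Lipofectamine, and were harvested at 24 hours. MED1 came from the plasmid in whichever cells took it up, and the share of cells transfected is not given in the sources used here. RNA of each sample, 200 ng, was measured on an Affymetrix expression array as MAS5 signal, a linear brightness with 1 value per probe set.

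The androgen receptor is a transcription factor that binds DNA once it holds a steroid, and it can raise some genes and lower others in the same cell. MED1 is the subunit of the Mediator complex through which nuclear receptors contact RNA polymerase II, and it is best known as a coactivator of induced genes. Androgen-lowered genes of prostate cells include surface proteins, enzymes and trafficking factors, and the prostate surface antigen FOLH1 is the best known of them.

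The upstream DNA is shown first for DDC, BCAR3 and LIFR. These are 3 of the 5 member genes with a probe set on which both MED1 arrays read below both empty vector arrays. The other 2 are FOLH1 and the dim SYTL2, which have no entry in the promoter table used. That order was found in 22.6% of all tested probe sets and in 20.5% of those too dim to be tested. A second, dim DDC probe set had both MED1 arrays above. Each line gives the 250 bases before a RefSeq start on GRCh38.p14, on the minus strand, 5′ to 3′, with capitals marking the androgen receptor half-site AGAACA or its reverse complement TGTTCT. DDC is shown at both of its starts in the table. BCAR3, with 10 starts, and LIFR, with 3, are shown only at the start that holds a half-site.
DDC, chr7:50565406-50565655: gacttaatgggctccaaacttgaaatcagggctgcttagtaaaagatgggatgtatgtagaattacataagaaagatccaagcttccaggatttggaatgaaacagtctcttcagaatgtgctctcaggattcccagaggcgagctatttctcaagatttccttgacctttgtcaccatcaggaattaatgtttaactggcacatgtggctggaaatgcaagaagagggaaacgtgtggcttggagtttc
DDC, chr7:50561072-50561321: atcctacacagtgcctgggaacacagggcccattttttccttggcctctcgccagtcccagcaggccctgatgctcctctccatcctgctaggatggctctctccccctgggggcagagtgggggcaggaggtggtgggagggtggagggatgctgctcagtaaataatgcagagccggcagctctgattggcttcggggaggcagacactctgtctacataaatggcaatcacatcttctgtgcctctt
BCAR3, chr1:93845911-93846160: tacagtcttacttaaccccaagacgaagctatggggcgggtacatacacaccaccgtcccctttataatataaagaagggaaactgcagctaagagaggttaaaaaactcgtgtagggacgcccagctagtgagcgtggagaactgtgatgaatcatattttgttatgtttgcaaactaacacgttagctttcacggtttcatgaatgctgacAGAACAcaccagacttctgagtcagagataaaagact
LIFR, chr5:38557468-38557717: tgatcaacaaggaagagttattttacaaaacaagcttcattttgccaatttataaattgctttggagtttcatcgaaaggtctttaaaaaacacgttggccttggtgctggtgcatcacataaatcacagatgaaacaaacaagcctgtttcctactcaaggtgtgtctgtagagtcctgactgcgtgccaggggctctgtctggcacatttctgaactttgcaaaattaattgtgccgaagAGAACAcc

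The table held 26 such windows for 7 of the 10 members. The half-site was in 2 of these 26 windows, 1 of BCAR3 and 1 of LIFR, against 12.4% of all 35116 windows. Neither DDC window held it. The full palindrome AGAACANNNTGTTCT was in 0 of the 26 windows, against 0.00285% of all windows. GCGTG, the core letters that the aryl hydrocarbon receptor binds, was in 10 of the 26 windows, against 32.2% of all windows, and 1 of the windows with it was of TIPARP. These matches are letters in a short window and say nothing about binding.

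The labels were checked first. The dimmer of the MED1 probe sets (203496_s_at) read 559 and 807 in MED1 cells, against 292 and 315 in empty vector cells, and it passed (limma, Benjamini-Hochberg adjusted p = 0.032). That call was lost with no filter (0.381), without the variance trend (0.358), and without empty vector replicate 1 (0.0607) or 2 (0.0869). The brighter one (203497_at) read 1172 and 1074 in MED1 cells, against 1097 and 1011 in empty vector cells, and it did not pass (adjusted p = 0.83). All 6 measured luminal prostate markers lay above the filter on dim probe sets, and 0 of the 3 measured leukocyte markers did. So did 1 of 3 measured basal markers (KRT14), 2 of 6 fibroblast markers (COL1A1 and THY1) and 1 of 4 endothelial markers (VWF). Lying above the filter therefore does not by itself mark a cell type. The median signal was 78.4 and 77.0 in MED1 cells, against 79.6 and 82.7 in empty vector cells.

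None of the androgen-repressed genes passed the test between MED1 and empty vector cells. Of the 11 probe sets, 7 probe sets of 7 genes were bright enough to be tested, and 0 of the 7 reached an adjusted p of 0.05 (limma on log2(signal + 16), Benjamini-Hochberg over all 13329 tested probe sets). The share of all tested probe sets that passed was 0.293%. At an unadjusted p under 0.05 the count was 2 of 7, BCAR3 and DDC, against 9.20% of all tested probe sets, and both were lower in MED1 cells, against 5.20%. In 4 of the 7, both MED1 arrays lay below both empty vector arrays, against 22.6% of all tested probe sets; in 0 of the 7 both lay above, against 17.2%. The median log2 fold change (MED1 over empty vector) of the 7 was -0.20, and that of all tested probe sets was -0.02. The members that could not be tested are not in these counts. The members were also chosen with earlier results of these data known, so the counts are a description alone. With 2 arrays a group, the smallest p that an exact permutation test allows is 0.333. Whether the 2 samples of a group were separate cultures is not stated, so p-values here cover only the difference between duplicates that may be technical.

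**Figure D1:**
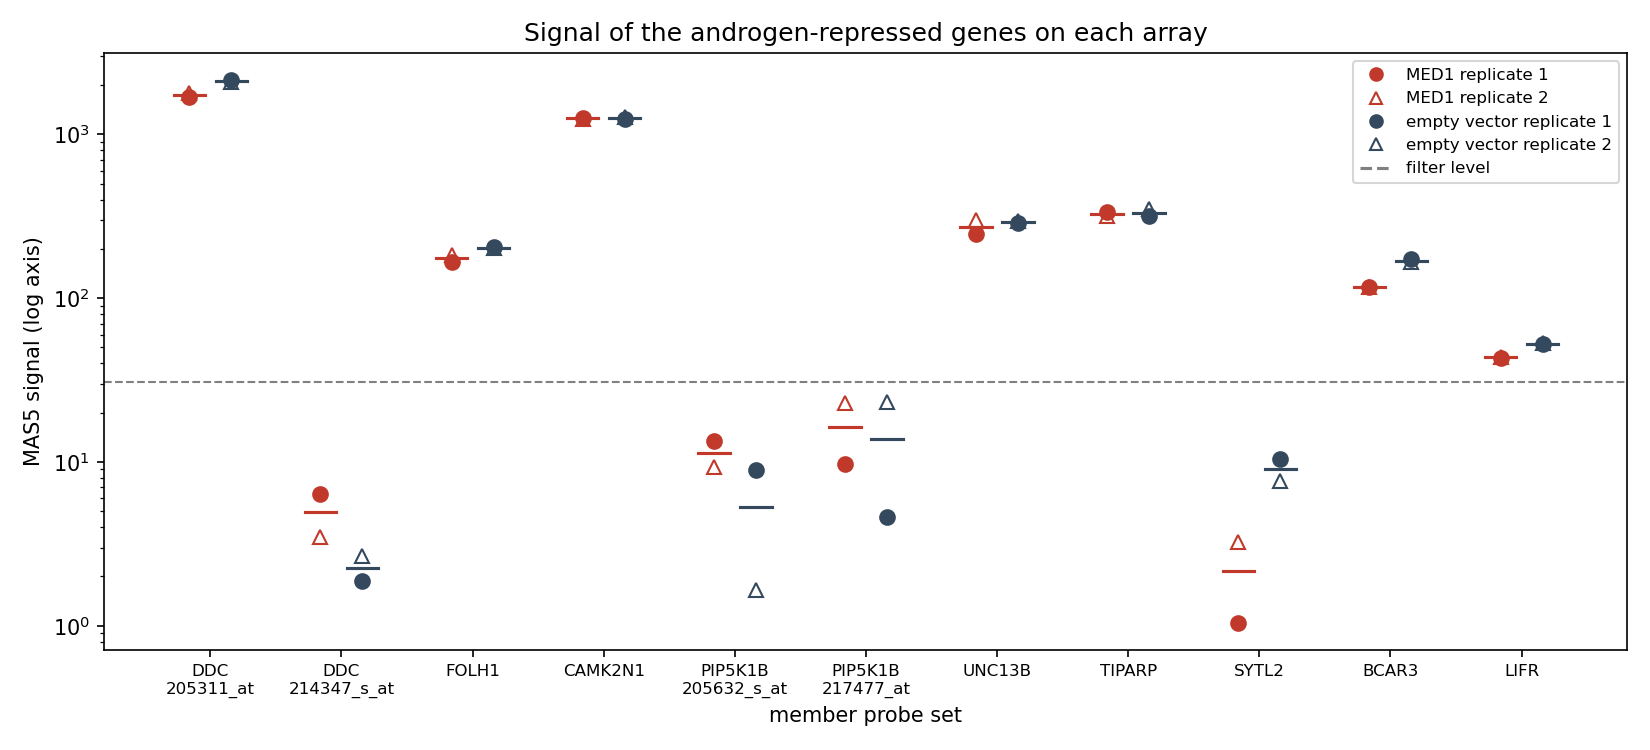
MAS5 signal (log axis) of the 11 member probe sets on each array, with MED1 in red left of empty vector in dark blue, filled circles for replicate 1, open triangles for replicate 2, bars for group means and a dashed line at the filter level of 31. BCAR3 separates the groups with 117 and 117 in MED1 cells, against 172 and 166 in empty vector cells, while the 4 probe sets of DDC, PIP5K1B and SYTL2 under the line read below 24 on every array.

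The members that make or break down small molecules were DDC and FOLH1. DDC is the aromatic amino acid decarboxylase that makes dopamine and serotonin, and it is also used as a marker of neuroendocrine cells. Its bright probe set (205311_at) read 1684 and 1791 in MED1 cells, against 2143 and 2088 in empty vector cells. Both MED1 arrays were thus below both empty vector arrays, and the gap between the groups was larger than the spread within either. The means were 1737 ± 75.4 in MED1 cells and 2115 ± 39.1 in empty vector cells (SD, n = 2), and the log2 fold change was -0.28 ± 0.09 (SE), with a 95% interval from -0.49 to -0.08, and it did not pass (limma adjusted p = 0.401). The interval is not adjusted for the number of probe sets tested.

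A second DDC probe set (214347_s_at) was dim, at 6.38 and 3.47 in MED1 cells, against 1.87 and 2.67 in empty vector cells. Its order was opposite to that of the bright probe set, with both MED1 arrays above, as in 13.3% of all probe sets under the filter. It was not tested. Signals of a few units have no known background here, because no detection calls were used.

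FOLH1 encodes the prostate-specific membrane antigen, a surface peptidase that releases glutamate from folates and peptides. The probe set that names it alone (217483_at) read 167 and 183 in MED1 cells, against 207 and 201 in empty vector cells. The groups did not overlap, and the log2 fold change was -0.20 ± 0.15 (SE), with a 95% interval from -0.53 to 0.12 (limma adjusted p = 0.7). FOLH1B is a near-identical copy, so signal of the pair cannot be split with certainty. The 3 probe sets that list FOLH1 together with FOLH1B gave log2 fold changes of 0.00588, 0.09 and -0.05, with overlapping groups in each. The probe set that lists FOLH1B alone (211303_x_at) read 6552 and 6214 in MED1 cells, against 5619 and 5606 in empty vector cells, and its log2 fold change of 0.18 ± 0.09 did not pass (limma adjusted p = 0.59). The probe sets that can see this pair therefore differed in sign.

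The signalling members were LIFR, BCAR3, CAMK2N1 and PIP5K1B. LIFR is the receptor of leukemia inhibitory factor, which signals through JAK kinases and STAT3. It read 43.3 and 44.0 in MED1 cells, against 52.2 and 53.2 in empty vector cells, at a signal close to the filter. The arrays of each group lay within about 1 unit of each other and did not overlap, yet the log2 fold change of -0.20 ± 0.23 (SE) had a 95% interval from -0.72 to 0.31 (limma adjusted p = 0.832). The standard error of limma draws on the spread of other probe sets of similar signal as well as on these arrays.

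BCAR3 is an adaptor that binds the integrin scaffold BCAR1 and, when overproduced, makes breast cancer cells resistant to antiestrogens. It read 117 and 117 in MED1 cells, against 172 and 166 in empty vector cells. The means were 117 ± 0.283 in MED1 cells and 169 ± 4.67 in empty vector cells (SD, n = 2). This was the largest difference among the 7 tested members, with at -0.48 ± 0.16 (SE) on the log2 scale, a level 0.717 times that of empty vector cells, with a 95% interval from -0.84 to -0.12. It did not pass (limma adjusted p = 0.42).

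CAMK2N1, an inhibitor of the calcium/calmodulin-dependent kinase CaMKII, read 1266 and 1249 in MED1 cells, against 1235 and 1270 in empty vector cells. The groups overlapped, and the log2 fold change was 0.00584 ± 0.09 (SE), with a 95% interval from -0.20 to 0.21 (limma adjusted p = 0.991). On a percent scale that interval runs from -12.9% to 15.8%, the narrowest of the members together with that of DDC.

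PIP5K1B, a kinase that makes the membrane lipid phosphatidylinositol 4,5-bisphosphate, was dim on both of its probe sets and was not tested. The first (205632_s_at) read 13.5 and 9.26 in MED1 cells, against 8.89 and 1.66 in empty vector cells. Both MED1 arrays thus lay above, as in 13.3% of all probe sets under the filter. The second (217477_at) read 9.78 and 22.8 in MED1 cells, against 4.64 and 23.2 in empty vector cells. On it the replicates of each group differed by more than the groups did.

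The members that serve vesicle traffic were UNC13B and SYTL2. UNC13B primes vesicles for fusion. It read 246 and 299 in MED1 cells, against 286 and 297 in empty vector cells, and the groups overlapped. Its log2 fold change was -0.10 ± 0.14 (SE), with a 95% interval from -0.41 to 0.22 (limma adjusted p = 0.876), and without MED1 replicate 1 its sign turned, to 0.034. SYTL2 is a synaptotagmin-like effector that tethers RAB27-bearing vesicles. It was too dim to be tested, at 1.04 and 3.25 in MED1 cells, against 10.4 and 7.63 in empty vector cells. Both MED1 arrays lay below, as in 20.5% of all probe sets under the filter.

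TIPARP, also called PARP7, attaches single ADP-ribose units to proteins and is a target of the aryl hydrocarbon receptor. It read 336 and 317 in MED1 cells, against 315 and 348 in empty vector cells. The groups overlapped, and the log2 fold change was -0.02 ± 0.13 (SE), with a 95% interval from -0.30 to 0.26 (limma adjusted p = 0.978); its sign turned with centring on the array median (0.031) and with quantile normalization (0.00396).

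ST7, a membrane protein first described as a tumour suppressor candidate, was listed only together with other genes. A probe set that lists ST7, ST7-OT3 and MIR6132 (207871_s_at) read 282 and 253 in MED1 cells, against 242 and 225 in empty vector cells. Both MED1 arrays lay above, as in 17.2% of all tested probe sets. The log2 fold change of 0.18 ± 0.14 did not pass (limma adjusted p = 0.721). A dimmer probe set with the same genes (207524_at) read 42.4 and 53.3 in MED1 cells, against 45.4 and 49.8 in empty vector cells, and the groups overlapped. No value is given to ST7 itself.

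**Figure D2:**
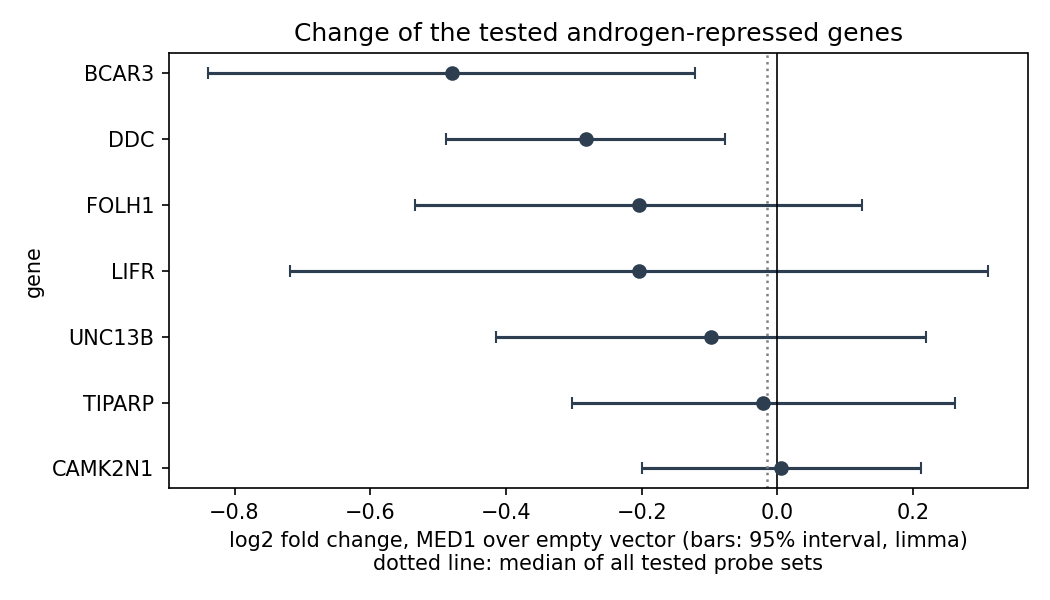
Log2 fold change of the 7 tested members, MED1 over empty vector, with the 95% interval of limma as bars and a dotted line at the median of all tested probe sets (-0.02). The intervals of BCAR3 (-0.84 to -0.12) and DDC (-0.49 to -0.08) lie below 0 before any adjustment for the number of probe sets, and those of the other 5 span it.

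The baseline was taken from the empty vector cells. The mean signals there were 2115 for DDC, 1253 for CAMK2N1, 332 for TIPARP, 292 for UNC13B, 204 for FOLH1, 169 for BCAR3 and 52.7 for LIFR. The replicate SD was 0.761 for LIFR and 39.1 for DDC, with the others between. The value for FOLH1 is of the probe set that names it alone. The probe sets that list it together with FOLH1B were far brighter in empty vector cells. They read 9293 and 9843 (205860_x_at), 9135 and 8921 (215363_x_at), and 2040 and 1946 (217487_x_at). Probe sets differ in brightness for reasons of sequence, so these signals do not rank the genes by transcript number. All 7 were read in cells kept in serum, and the androgen content of the medium is not given in the sources used here.

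Other genes listed, from background knowledge alone, as lowered by androgen in prostate cancer cells did not pass either. Whether androgen lowers each of them in these cells was not measured here. They were chosen with earlier results of these data known, so their counts are a description alone. Of 20 such genes, 18 were measured and 9 tested, and 0 passed in either direction (limma), against 0.293% of all tested probe sets. At an unadjusted p under 0.05 (limma) there were 2 of the 9, against 9.20% of all tested probe sets. These were ENO2, lower in MED1 cells, and IGFBP3, higher. By the brightest probe set of each, the median log2 fold change was 0.05, with 7 values above 0 and 2 below. Of all tested probe sets, 53.5% were below 0. ENO2, a glycolytic enzyme of neurons and neuroendocrine cells, read 104 and 118 in MED1 cells, against 199 and 271 in empty vector cells. Its log2 fold change of -0.97 ± 0.18 (SE) did not pass (limma adjusted p = 0.0983). IGFBP3, a binding protein that holds insulin-like growth factors, read 221 and 251 in MED1 cells, against 154 and 176 in empty vector cells (log2 fold change 0.48 ± 0.15, limma adjusted p = 0.386). A second IGFBP3 probe set had overlapping groups. IGF1R, the receptor of those factors, gave 0.21 ± 0.17 (limma adjusted p = 0.743), and -0.10 by a second probe set.

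DDC and ENO2 both serve as neuroendocrine markers, so the marker list was read beside them. Of 8 measured neuroendocrine markers, 7 lay under the filter, and ENO2 was the tested one. The summed signal of the list, with the brightest probe set of each gene, was 145 and 172 in MED1 cells, against 261 and 344 in empty vector cells. Most of that sum was ENO2, and the other 7 genes summed to 40.9 and 53.8 in MED1 cells, against 61.9 and 72.9 in empty vector cells. Signals this dim have no known background here, so the sum of the 7 does not show a change. Of these 7 dim genes, 2 had both MED1 arrays below (the granule proteins CHGA and CHGB), 1 had both above (the vesicle protein SYP), and in 4 the groups overlapped. Of all probe sets under the filter, 20.5% had both below and 13.3% both above. CHGA read 3.47 and 5.58 in MED1 cells, against 6.79 and 39.0 in empty vector cells, so 1 of its empty vector arrays lay close to the MED1 arrays. CHGB read 2.36 and 2.34 in MED1 cells, against 17.3 and 21.0 in empty vector cells, and SYP read 5.80 and 6.20 in MED1 cells, against 4.56 and 2.16 in empty vector cells. No marker of the list was at exactly 0. The part of this list in the DDC values was not tested, and in whole cultures fewer cells of a kind and less RNA per cell cannot be told apart.

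Androgen-induced genes were read for contrast. Like the other lists, theirs was chosen with earlier results of these data known, so its shares are a description alone. Of 26 listed, 18 were measured and 17 tested. Of these, 1 passed as lower and 0 as higher (limma), against 0.293% of all tested probe sets. By the brightest tested probe set of each, the median log2 fold change was -0.05. At an unadjusted p under 0.05 (limma) there were 5 of the 17, against 9.20% of all tested probe sets. These were TSC22D3, ZBTB16, TMPRSS2 and GUCY1A1 (-0.24), lower in MED1 cells, and PMEPA1 (0.31), higher. Dimmer probe sets of TSC22D3, KLK2 and SPDEF were also under that p and lower, while the brightest of KLK2 and SPDEF were not under it. Of the 17 genes, both MED1 arrays lay below both empty vector arrays in 7 and above in 4, against 22.6% and 17.2%. The one that passed was TSC22D3, a leucine zipper protein also induced by glucocorticoids. It read 1056 and 1259 in MED1 cells, against 2281 and 2409 in empty vector cells (log2 fold change -1.01 ± 0.11 (SE), limma adjusted p = 0.00454). A dimmer TSC22D3 probe set gave -0.68 ± 0.24 and did not pass (limma adjusted p = 0.443). The call of the brighter one was lost when dim probe sets were kept in the fit (limma adjusted p = 0.122) and without the variance trend (adjusted p = 0.232). ZBTB16, a zinc finger repressor, gave -0.33 ± 0.10 (limma adjusted p = 0.333). TMPRSS2, a surface protease, gave -0.31 ± 0.10 (limma adjusted p = 0.392), and 0.17 by a second probe set. The difference between the androgen-repressed and the androgen-induced list was not tested.

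**Figure D3:**
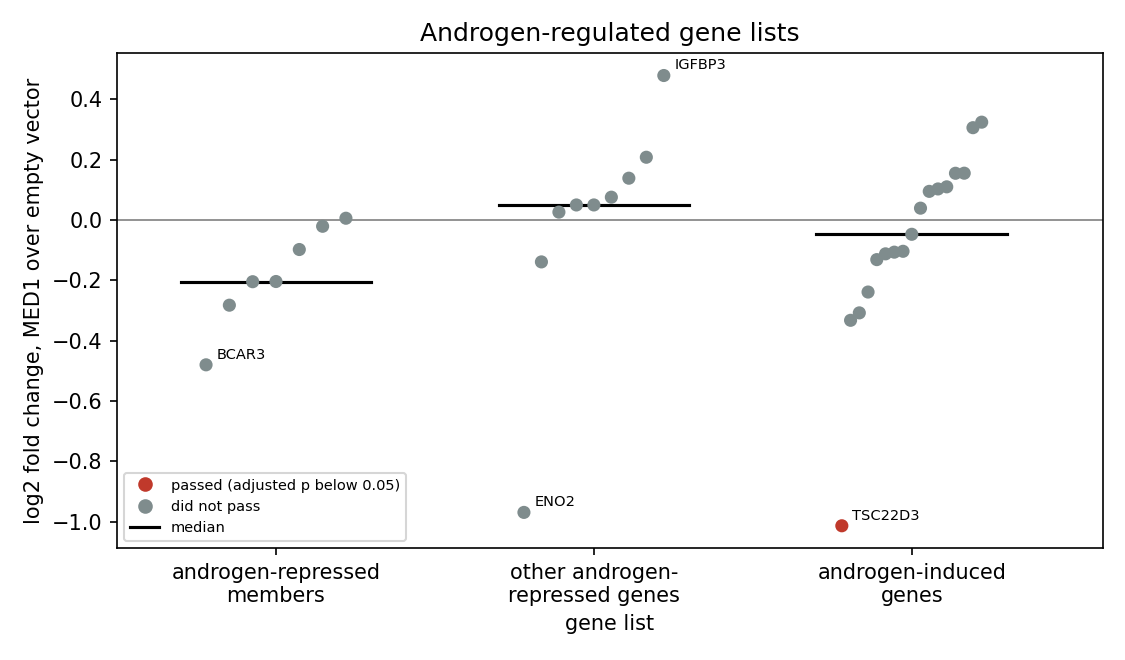
Log2 fold change (MED1 over empty vector) of each tested gene by its brightest probe set in the androgen-repressed members (7 genes), other androgen-repressed genes (9) and androgen-induced genes (17), with black lines at the medians of -0.20, 0.05 and -0.05. The single red point is TSC22D3 at -1.01, the one gene of the 3 lists that passed; it did not pass with no filter or without the variance trend.

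The genes that work with the members were compared in 9 short lists. The lists were chosen with earlier results of these data known, so their counts are a description alone. Together they named 115 genes, of which 90 were measured and 66 tested, and 0 passed (limma), against 0.293% of all tested probe sets. Each gene was then counted by its brightest tested probe set. At an unadjusted p under 0.05 (limma) there were 2, FOLR1 and PARP1, against 9.20% of all tested probe sets. Of the 66, 35 values were above 0 and 31 below. Both MED1 arrays lay below in 9 and above in 11, against 22.6% and 17.2% of all tested probe sets. Dimmer tested probe sets of ZC3HAV1, SLC19A1, PI4KB and NQO1 also had an unadjusted p under 0.05 (limma). PI4KB was lower in MED1 cells on its probe set, and the others were higher. ZC3HAV1 had the lowest p of these (log2 fold change 0.51 ± 0.14, limma adjusted p = 0.302), and its brightest probe set gave 0.00269.

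Around DDC, 3 monoamine genes were tested, with a median log2 fold change of 0.03. MAOA, which degrades serotonin and noradrenaline, gave 0.08 ± 0.10, GCH1, which starts the synthesis of the cofactor tetrahydrobiopterin, gave 0.03 ± 0.10, and QDPR, which recycles that cofactor, gave -0.09 ± 0.11 (SE, limma; lowest adjusted p = 0.844). Around FOLH1, 6 folate and glutamate genes had a median of -0.00601. FOLR1, a folate receptor, read 1492 and 1232 in MED1 cells, against 982 and 1133 in empty vector cells (log2 fold change 0.36 ± 0.12, limma adjusted p = 0.431). On a second FOLR1 probe set, too dim to be tested, both MED1 arrays lay below, as in 20.5% of all probe sets under the filter. GGH, which trims folate polyglutamates, gave -0.18 ± 0.12.

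Around LIFR, 9 cytokine genes had a median log2 fold change of -0.00529. IL6ST, the gp130 chain that pairs with LIFR, read 1573 and 1547 in MED1 cells, against 1409 and 1333 in empty vector cells, so its brightest probe set ran opposite to LIFR, at 0.18 ± 0.09 (limma adjusted p = 0.587). Its other tested probe sets gave 0.38, -0.07 and 0.11. IL6R, the interleukin-6 receptor, gave 0.17 ± 0.10, and SOCS3, the feedback inhibitor of this pathway, gave -0.51 ± 0.39 at low signals. Around BCAR3, 9 integrin adaptor genes had a median of 0.09. CRKL, an adaptor, gave 0.21 ± 0.10, and the focal adhesion kinase PTK2 gave 0.18 ± 0.10. EFS, a scaffold of the BCAR1 family, gave -0.22 ± 0.12 and -0.24 by a second probe set (limma; lowest adjusted p of the list = 0.568).

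Around CAMK2N1, 2 kinase genes were tested: CAMK2G, a CaMKII subunit, gave -0.03 ± 0.12 and CAMK1 0.09 ± 0.17. Around PIP5K1B, 14 phosphoinositide genes had a median of -0.05, with PIP4K2C at -0.26 ± 0.12, PIP5K1A at 0.19 ± 0.15 and PIP4K2B at 0.18 ± 0.14, all kinases of the same lipid family. Around UNC13B and SYTL2, 12 exocytosis genes had a median of 0.07, with the vesicle GTPase RAB3B at -0.18 ± 0.13 (0.03 by a second probe set) and the fusion proteins STX1A at 0.22 ± 0.20 and VAMP2 at 0.32 ± 0.30.

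Around TIPARP, 10 genes of the aryl hydrocarbon receptor and ADP-ribose list had a median of 0.02. PARP1, the main nuclear ADP-ribose polymerase, read 3478 and 3703 in MED1 cells, against 3197 and 2594 in empty vector cells (log2 fold change 0.32 ± 0.11, limma adjusted p = 0.452). PARP2, its relative, gave -0.16 ± 0.10, and TBK1, a kinase of antiviral signalling, gave 0.34 ± 0.15. ST7L, the relative of ST7, gave -0.24 ± 0.28 at a signal near the filter (limma adjusted p = 0.84).

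The patterns of DDC and BCAR3 over the 4 arrays were matched against 11830 other tested probe sets that name 1 gene, after each was centred on its own mean. The likeness measure was the root mean square difference of the 4 log2 values, and 4 arrays make this a description alone. Nearest to DDC were PPP6R2 (0.00905), TNFAIP8 (0.0109) and THOC2 (0.0129), and nearest to BCAR3 were CEP57 (0.00635), BDKRB1 (0.00982) and USP1 (0.0219). CEP57, for example, read 564 and 559 in MED1 cells, against 798 and 769 in empty vector cells. None of these 6 genes passed the test (limma; lowest adjusted p = 0.0941, for USP1).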

How the data were processed

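LNCaP RNA from 4 samples was measured on 1 array each, 2 with the MED1 vector and 2 with the empty vector, grouped by title and transfection label. Their description field says MED1 vector for all 4 samples and was not used. The deposited values are MAS5 signal intensity on a linear scale, per the submitters' processing notes. The mean after trimming 2% at each end was 500.2 on every array. No other upstream step is stated in the sources used here.

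Of 22277 probe sets, 62 controls were left out. Of the rest, 19064 named 1 gene in the platform annotation, 1043 several and 2108 none, and symbols were updated through Entrez identifiers for 19058. The deposited signals were transformed here to log2(value + 16), which understates changes of dim probe sets. A filter on dim probe sets kept the 13329 whose mean log2 value reached the 40th percentile, equal to a signal of 31. MED1 was set against empty vector in R 4.3.3 by limma 3.58.1 (linear fit, moderated by eBayes with trend; prior degrees of freedom 7.3 beside 2 residual ones), two-sided, with Benjamini-Hochberg adjustment over all tested probe sets and a threshold of 0.05. In 10 simulations, 200 of 13329 probe sets were changed. The procedure recovered 35.4% of these changes at 1.5-fold and 75.4% at 2-fold, and 5.25% of the simulated calls were false. The simulated noise was normal and independent, with variances drawn from the prior that limma had fitted. These rates therefore hold only for data that meet the assumptions of the model, and they are not error rates of the calls made here. Arrays have no read depth, and their number limits the precision.

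The members and gene lists were chosen with earlier results of these data known. Named genes were all member probe sets, MED1, passing genes of each list, the 3 genes of lowest unadjusted p in each list by their brightest tested probe set, and the 3 nearest patterns to each of the 2 members of lowest p. CHGA, CHGB, SYP, ZC3HAV1, SLC19A1, PI4KB, NQO1, GUCY1A1, PMEPA1, KLK2 and SPDEF fall outside that rule and were named after their values were seen. Promoter windows are RefSeq, GRCh38.p14. Alternatives covered the pseudocount, scaling, filter, variance trend, replicate block and each array left out. Plots were drawn with matplotlib 3.10.9.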

Additional observations from a re-analysis of the deposited data

How the results depend on the processing

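The count of member probe sets that passed was 0 under all 12 alternatives (limma; 0 to 3 at an unadjusted p under 0.05, where 0 came without MED1 replicate 1). Adjusted p ranged from 0.101 to 0.904 for DDC and from 0.207 to 0.791 for BCAR3, which had 11 alternatives because it lay under the 60th-percentile filter, as did LIFR. DDC, FOLH1, BCAR3 and LIFR kept a negative log2 fold change in all of theirs, from -0.33 to -0.23, -0.26 to -0.15, -0.53 to -0.37 and -0.27 to -0.12. TIPARP turned to 0.031 with median centring and 0.00396 with quantile normalization. With an array left out, TIPARP ran from -0.089 to 0.048, CAMK2N1 from -0.014 to 0.026 and UNC13B from -0.23 to 0.034. The cause was not tested. The member median of -0.20 was -0.12 with a pseudocount of 64, and -0.10 both with no filter (11 probe sets) and at the 60th percentile (5 probe sets), where different probe sets enter. It ran from -0.23 to -0.15 with an array left out. Over all probe sets the count of 39 was 0 with no filter (limma, 0 of 22215, and 1680 at an unadjusted p under 0.05), and 5 without the variance trend. Leaving out an array gave counts of 25 to 216: leaving out MED1 replicate 1 gave 94, MED1 replicate 2 gave 216 and empty vector replicate 2 gave 25. A replicate block raised the count to 239 and called no member. The deviations of arrays that share a number had a correlation of 0.12, and 2 pairs are too few to treat the numbers as pairing. Where an array is left out, the lone sample is assumed to vary like the other group. Signals under the filter have no known background.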
